A study of Mus musculus with 1 sample.

Results

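Rac exchange factors are the proteins that switch on the Rac GTPases, and the data described here are the mRNA levels of 10 of their genes in a library labelled as c-kit+ bone marrow (BM) cells of the mouse. The genes are *Vav1*, *Vav2*, *Vav3*, *Dock1*, *Dock2*, *Dock5*, *Prex1*, *Tiam1*, *Tiam2* and *Arhgef6*. They were taken as a list of known activators of Rac by a rule that names no measured value, but with earlier results of these data known. All 10 symbols were found among the 54532 Ensembl genes of the deposited table through the GENCODE M21 annotation of GRCm38. Rac proteins cycle between a GDP-bound resting form and a GTP-bound active form. Exchange factors open the nucleotide site so that GTP can enter, GTPase-activating proteins end the signal, and GDP dissociation inhibitors hold the resting form in the cytosol. In blood cells, active Rac drives actin assembly, migration, adhesion and the oxidative burst, and RAC2 is the form largely restricted to hematopoietic cells.

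The study asked how loss of *Gadd45g* leads to myeloproliferative neoplasm (MPN), and signaling through RAC2 was among its questions. The values here come from 1 library, labelled as c-kit+ BM cells, which the study describes as sorted. The cells are of Ctrl mice of the C57BL/6 strain with the wild type genotype and, per the labels, were negative for lineage markers and Sca-1. The age and number of these mice, and whether they carried the *Vav-Cre* transgene with which *Gadd45g* was deleted in the other group, are not given in the sources used here. No library of *Gadd45g*-deficient mice was used here. The values are therefore levels within the Ctrl library, without comparison between genotypes and without a spread between mice.

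Levels are in FPKM, the fragments on a gene divided by the length of its exons and by the depth of the library. Each value was turned back into its number of fragments, and the 95% Wilson interval beside a level covers the error of counting those fragments only. The fragments recovered in this way, rounded to whole numbers, sum to 17113323. The deposited values imply a lower depth of 1.58e+07 fragments, and the source of the difference was not tested. *Kit*, the gene of the sorting antigen, had 7.17 FPKM. Of the marker lists, all 6 genes of granulocyte-macrophage progenitors (GMP) and all 6 of megakaryocyte-erythroid progenitors (MEP) reached 1 FPKM, and none of 5 hematopoietic stem cell (HSC) genes did. All 9 genes of mature neutrophils, from 480 to 26677 FPKM, all 6 of erythroid cells, from 1037 to 25466 FPKM, and all 6 of B cells, from 17.1 to 4323 FPKM, were also above 1 FPKM. The neutrophil genes held 12.8% and the erythroid genes 11.6% of all FPKM. These values go against a label of lineage-negative progenitors, and *Kit* was below each of these neutrophil, erythroid and B cell genes. The 5 T cell genes had from 2.62 to 8.55 FPKM, the 5 macrophage genes from 6.29 to 51.5 FPKM, the 6 megakaryocyte genes from 1.28 to 38.7 FPKM, the 5 basophil and mast cell genes from 4.62 to 168 FPKM and the 5 stromal and endothelial genes from 0.203 to 6.57 FPKM. The part of these cells in the levels below was not tested, and in bulk RNA fewer cells of a type and less RNA per cell cannot be told apart.

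All 10 Rac exchange factor genes reached 1 FPKM in the Ctrl library labelled as c-kit+ BM cells. At this minimum 22.2% of all genes and 46.8% of protein-coding genes were detected. The levels ran from 1.31 FPKM for *Tiam2* to 52.7 FPKM for *Vav1*, a 40.3-fold range (exact 95% interval of the ratio, 35.5 to 45.9). This range depended on gene length and was 24.1-fold with the longest coding transcript as length, 23.7-fold with coding length and 11.7-fold in fragments. The median of the 10 was 9.56 FPKM, against 1.77 FPKM over all genes above 0 and 4.22 FPKM over protein-coding genes above 0. With 10 FPKM as the minimum 4 of the 10 remained, where 9.37% of all genes and 21.2% of protein-coding genes did. *Vav1*, *Prex1* and *Dock2* held 68.6% of the summed level of the 10. The shares move with gene length, and that of *Vav1* alone, 31.8%, was 22.5% with coding length and 14.7% in fragments.

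**Figure D1:**
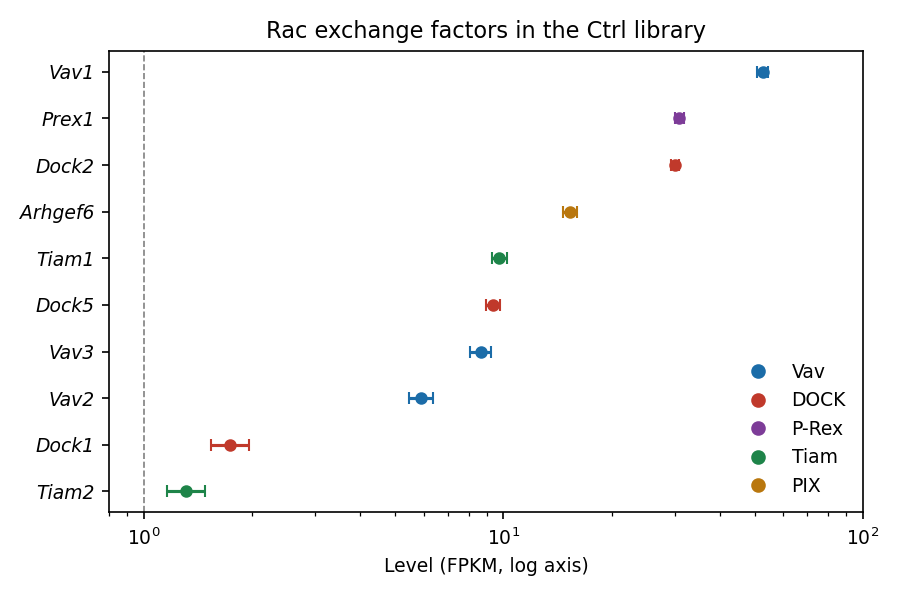
Level of each Rac exchange factor gene in the Ctrl library, in FPKM on a log axis, with bars for the 95% Wilson interval of counting error, colors for the protein families and a dashed line at 1 FPKM. *Vav1* stands alone at 52.7 FPKM, *Prex1* and *Dock2* overlap near 30 FPKM, and *Dock1* and *Tiam2* lie lowest, at 1.74 and 1.31 FPKM.

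The promoters of the 3 highest genes are shown because *Vav1* regulatory sequence also drives the Cre of the study's mutant mice and because these 3 genes make up most of the summed level. Each window, from RefSeq on GRCm38.p6, runs from 250 bases before the start of transcription to 50 after it, and 15 such windows were found for 9 of the 10 genes, with none for *Dock5*. Capitals mark 2 letter strings read on either strand, GAGGAA, a form that PU.1 and other ETS factors can bind, and GGGCGG, the GC box form. The strings were chosen after the sequences had been read. The windows are chr17:57278850-57279149 on the forward strand for *Vav1*, chr2:166713783-166714082 on the reverse strand for *Prex1* and chr11:34783856-34784155 on the reverse strand for *Dock2*.
Vav1: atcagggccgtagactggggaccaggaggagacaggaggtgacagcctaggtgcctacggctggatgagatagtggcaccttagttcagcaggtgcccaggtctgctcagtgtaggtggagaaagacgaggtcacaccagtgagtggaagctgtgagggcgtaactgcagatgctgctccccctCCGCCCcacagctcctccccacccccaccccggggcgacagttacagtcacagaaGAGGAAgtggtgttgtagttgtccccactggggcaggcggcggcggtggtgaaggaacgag
Prex1: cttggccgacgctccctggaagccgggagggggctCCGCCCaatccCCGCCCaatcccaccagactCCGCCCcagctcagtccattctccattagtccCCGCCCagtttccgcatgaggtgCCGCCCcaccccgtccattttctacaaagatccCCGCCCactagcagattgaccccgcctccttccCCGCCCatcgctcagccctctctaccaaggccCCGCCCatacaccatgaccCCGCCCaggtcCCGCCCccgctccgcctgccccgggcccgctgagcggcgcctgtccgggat
Dock2: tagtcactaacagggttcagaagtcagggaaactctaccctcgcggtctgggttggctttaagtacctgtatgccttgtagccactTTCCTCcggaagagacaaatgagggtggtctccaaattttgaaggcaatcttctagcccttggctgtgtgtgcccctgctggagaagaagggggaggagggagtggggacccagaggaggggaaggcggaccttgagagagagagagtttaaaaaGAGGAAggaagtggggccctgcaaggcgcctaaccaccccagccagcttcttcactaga

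GAGGAA begins 11 bases before the RefSeq start in *Vav1* and 9 bases before it in *Dock2*, on the gene's own strand in both. The RefSeq starts are not in each case the GENCODE starts given below. *Dock2* has a second match, on the other strand, 164 bases before the start. *Dock1* has a match on the other strand 7 bases before its RefSeq start. That match lies after the GENCODE start of the gene, and so inside it. *Arhgef6* and *Vav2* have matches too. The windows of *Prex1*, *Vav3*, *Tiam1* and *Tiam2* have none. Those of *Tiam1* and *Tiam2* lie inside the genes, away from the outer start of each, which no window covered. The window of *Vav2*, chr2:27427559-27427858, lies wholly upstream of the gene as given below and does not cover its GENCODE start. The string is common, being in 5 of the 15 windows and in 28.3% of all 32851 windows. The longer string GAGGAAGT was in *Vav1* alone of the 9 genes with a window and in 3.20% of all windows. GGGCGG is common too, being in 6 of the 15 windows and in 35.7% of all windows. It occurred 10 times in the *Prex1* window, each time on the other strand and so printed as CCGCCC. That number was reached in 0.0517% of all windows. *Vav3* had 6 in a window, *Dock1* 3, *Vav1* and *Vav2* 1 each and *Dock2* none. The *Prex1* window held 24 CpG dinucleotides, that of *Vav1* 11 and that of *Dock2* 5, with a median of 7 over all windows. A match of letters is not a bound site, and no binding was measured here.

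The Vav proteins are exchange factors with a Dbl homology domain that are opened by tyrosine phosphorylation below antigen, Fc and cytokine receptors and integrins. *Vav1* (ENSMUSG00000034116, chromosome 17, 57279100 to 57328031, forward strand) had 52.7 FPKM from 3070 fragments (interval, 50.9 to 54.6 FPKM). *Vav3* (ENSMUSG00000033721, chromosome 3, 109340653 to 109685698, forward strand) had 8.65 FPKM from 820 fragments (interval, 8.08 to 9.26). *Vav2* (ENSMUSG00000009621, chromosome 2, 27262104 to 27427033, reverse strand) had 5.90 FPKM from 644 fragments (interval, 5.46 to 6.37). The 3 intervals do not overlap. *Vav1*, the form largely restricted to blood cells, thus made up 78.4% of the summed Vav level and was 6.10 times *Vav3* (exact 95% interval, 5.64 to 6.59) and 8.94 times *Vav2* (interval, 8.21 to 9.75). *Vav3* was 1.47 times *Vav2* (interval, 1.32 to 1.63). *Vav1* was higher than 95.7% of protein-coding genes and ranked 1084 among all genes. With coding length in place of exon length, its ratio to *Vav3* was 3.75 and that to *Vav2* 4.90, and in fragments they were 3.74 and 4.77.

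*Dock1*, *Dock2* and *Dock5* encode the DOCK-A proteins, which carry out exchange on Rac through a DHR2 domain in place of the Dbl homology domain and work in complex with ELMO scaffolds. *Dock2* (ENSMUSG00000020143, chromosome 11, 34226815 to 34783892, reverse strand) is needed for chemokine-driven migration of lymphocytes and neutrophils. It had 30.0 FPKM from 5408 fragments (interval, 29.2 to 30.8), more fragments than any other of the 10 genes. *Dock5* (ENSMUSG00000044447, chromosome 14, 67752135 to 67933442, reverse strand) had 9.37 FPKM from 1799 fragments (interval, 8.94 to 9.81). *Dock1* (ENSMUSG00000058325, chromosome 7, 134670654 to 135173639, forward strand), the broadly expressed DOCK180 that acts in engulfment of dying cells, had 1.74 FPKM from 256 fragments (interval, 1.54 to 1.96). The order *Dock2*, *Dock5*, *Dock1* is wider than the counting error at each step. *Dock2* was 3.20 times *Dock5* (interval, 3.03 to 3.38) and 17.3 times *Dock1* (interval, 15.2 to 19.6), and it held 73.0% of the summed DOCK-A level.

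*Prex1* encodes P-Rex1, which is switched on jointly by the lipid product of PI3K and by the βγ subunits of G proteins and acts below chemoattractant receptors in neutrophils. *Prex1* (ENSMUSG00000039621, chromosome 2, 166566342 to 166713832, reverse strand) had 30.9 FPKM from 5002 fragments (interval, 30.0 to 31.7). Its relative *Prex2*, which is not among the 10, had 0.0305 FPKM from 8 fragments (interval, 0.0155 to 0.0602). *Prex1* was thus 1012 times *Prex2*, with an exact interval of 513 to 2344 that is wide because of the 8 fragments. In fragments the ratio was 625. *Prex1* and *Dock2* did not differ beyond counting error, with a ratio of 1.03 (interval, 0.990 to 1.07).

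*Arhgef6* (ENSMUSG00000031133, chromosome X, 57231485 to 57338729, reverse strand) encodes αPIX, which binds PAK kinases and GIT scaffolds and joins Rac and Cdc42 activation to their effector. It had 15.3 FPKM from 2070 fragments (interval, 14.7 to 16.0). The gene of the related βPIX, *Arhgef7*, had 3.18 FPKM (interval, 2.96 to 3.41), so that *Arhgef6* was 4.83 times as high (interval, 4.44 to 5.24), or 2.62 times in fragments.

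The Tiam proteins are exchange factors selective for Rac that were first linked to invasion of T lymphoma cells and take part in cell polarity. *Tiam1* (ENSMUSG00000002489, chromosome 16, 89787111 to 90143769, reverse strand) had 9.75 FPKM from 1546 fragments (interval, 9.27 to 10.2). *Tiam2* (ENSMUSG00000023800, chromosome 17, 3326573 to 3531344, forward strand) had 1.31 FPKM from 263 fragments (interval, 1.16 to 1.48). *Tiam1* was 7.45 times *Tiam2* (interval, 6.54 to 8.53), or 4.94 times with the length of the longest coding transcript. Of the 9 steps in the order of the 10 genes, 3 were within counting error. They are *Prex1* to *Dock2*, *Tiam1* to *Dock5*, with a ratio of 1.04 (interval, 0.972 to 1.11), and *Dock5* to *Vav3*, with a ratio of 1.08 (interval, 0.996 to 1.18). The lowest step, *Dock1* over *Tiam2*, was 1.33 (interval, 1.11 to 1.58). Each of these 4 orders reversed under at least 1 other length or in fragments.

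**Figure D2:**
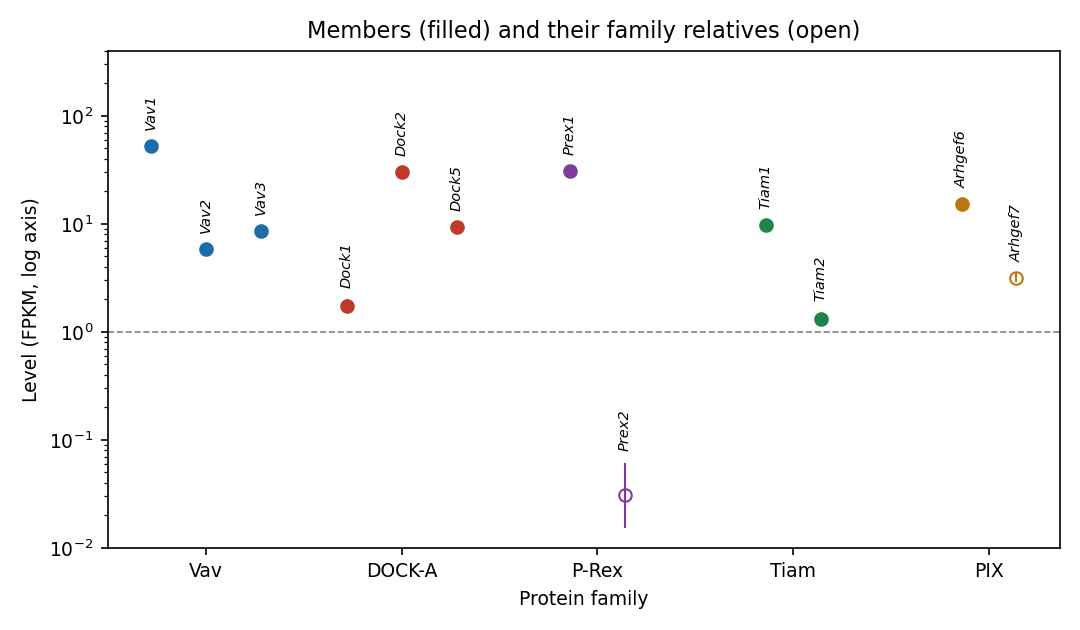
Levels in FPKM on a log axis of the 10 genes (filled) and of *Prex2* and *Arhgef7* (open), set out by protein family, with lines for the 95% Wilson interval and a dashed line at 1 FPKM. In each of the 5 families a single gene holds from 73.0% to 99.9% of the summed deposited FPKM, a share that moves with the gene length used.

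The division by gene length bears on this order, since the deposited values divide by every base that any transcript of the gene counts as exon. For *Vav1* that length is 3688 bases, of which the longest coding transcript holds 80.3%. For *Dock2* it is 11425 bases and 56.1%, and for *Tiam2* 12741 bases and 48.1%. Under the other lengths the numerator stayed the fragments on all exons, so the values are not levels over those stretches alone. Divided by the length of the longest coding transcript, *Vav1* had 65.6, *Dock2* 53.5 and *Prex1* 48.5 FPKM. *Dock2* was then above *Prex1*, and *Tiam2*, at 2.72, above *Dock1*, at 2.38. Divided by coding length, *Vav1* had 76.7, *Prex1* 64.0, *Dock2* 62.5 and *Arhgef6* 55.0. Genes with much exon outside the coding sequence rise most by this. *Arhgef6* rose from 15.3, with 2385 coding bases of 8552 exon bases. *Vav1* was the highest of the 10 genes under each of these 3 lengths and the third by fragments without division, and *Dock1* and *Tiam2* were the lowest pair in all 4 cases.

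**Figure D3:**
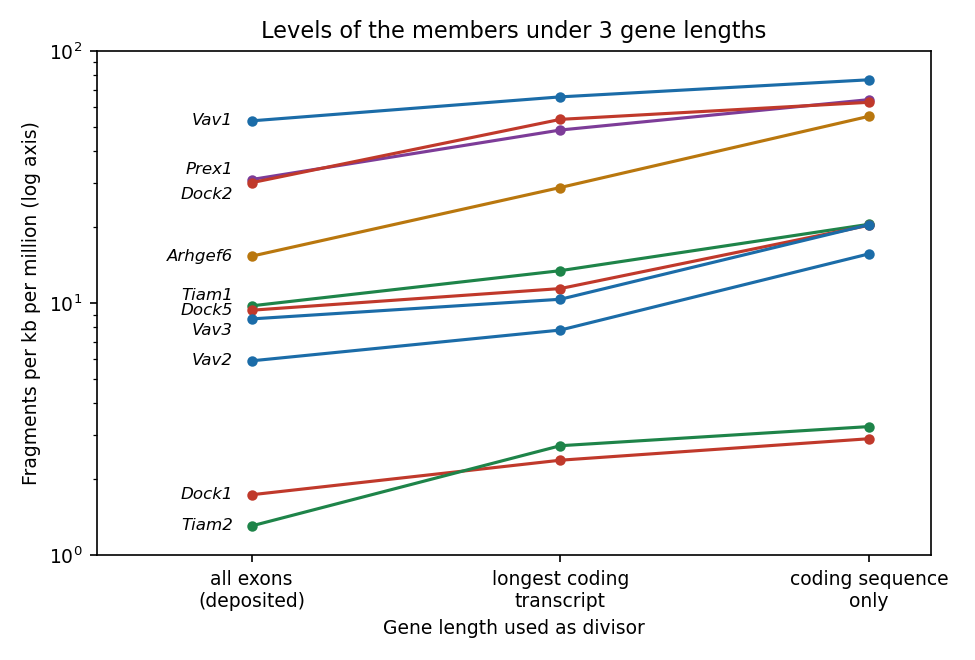
FPKM on a log axis of the 10 genes with 3 gene lengths as divisor, each line being 1 gene and colors marking protein families as in the plot of the 10 levels. *Vav1* stays on top at 52.7, 65.6 and 76.7, and the lines of *Prex1* and *Dock2* and those of *Dock1* and *Tiam2* cross.

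Similar sequence could move fragments between genes at counting. Within a family the coding sequences were alike at between 63.0% and 68.5% of aligned bases, from *Tiam1* against *Tiam2* to *Dock1* against *Dock5*. Of all 50-base stretches in the transcripts of each gene, none occurred in a transcript of another gene for 7 of the 10. The exceptions were *Dock2*, with 3.61% of its stretches, all shared with the antisense gene *4930403D09Rik*, *Tiam2*, with 0.733%, shared with *Tfb1m* on the opposite strand, and *Arhgef6*, with 0.199%. *4930403D09Rik* overlaps 460 exon bases of *Dock2* and is listed at 0. *Tfb1m* overlaps 142 exon bases of *Tiam2*. Whether the counting used strand is not given in the sources used here, so fragments in these overlaps cannot be assigned with certainty.

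The wider set of exchange factors was read from lists set out by role. Beside each list's count at 1 FPKM stands the share of all protein-coding genes at this minimum, 46.8%. Of 20 other genes listed here as Rac exchange factors, 12 reached 1 FPKM, and the list's median was 1.75 FPKM. The action of each product on Rac was not tested, and some may act mainly on other GTPases. The highest were *Def6* at 33.0 FPKM and *Ect2*, which acts in cytokinesis, at 17.8 FPKM, followed by *Sos2* at 10.3 FPKM and *Swap70* at 10.1 FPKM. The lowest were *Rasgrf1* at 0.0115 FPKM, *Prex2* at 0.0305 FPKM and *Dock3* at 0.0307 FPKM. *Vav1* was the highest of these 30 genes listed for Rac, and the 10 genes held 61.9% of their summed level. Of 18 genes for exchange factors of other GTPases, such as Cdc42 and RhoA, 14 reached 1 FPKM, and the list's median was 12.7 FPKM. *Arhgef1*, an exchange factor for RhoA, had 60.3 FPKM and *Dock8*, for Cdc42, 53.1 FPKM, and these were the only genes of the 48 listed above *Vav1*. The value of *Dock8*, which gave no whole number of fragments and so has no interval, lies within the interval of *Vav1*, 50.9 to 54.6 FPKM. *Fgd3* had 24.7 FPKM and *Akap13* 23.1 FPKM, and among the lowest were *Arhgef5* at 0.203 FPKM and *Fgd1* at 0.103 FPKM. Among the 11 DOCK genes, *Dock2* came after *Dock8* and before *Dock11*, at 11.3 FPKM, and *Dock5*. *Dock10* had 7.18 FPKM, and *Dock9*, *Dock6* and *Dock4* lay between 0.947 and 0.180 FPKM.

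Of the GTPases these exchange factors act on or with, *Rac2* had the highest mRNA, 332 FPKM, and *Rac1* had 63.5 FPKM. *Rac2* was 6.30 times *Vav1* (exact 95% interval, 6.06 to 6.55) and *Rac1* 1.20 times *Vav1* (interval, 1.15 to 1.26). *Rhog*, whose product recruits ELMO and DOCK proteins to the membrane, had 164 FPKM, or 5.46 times *Dock2* (interval, 5.23 to 5.69). This order rests on the division by length, since *Rhog* had 0.678 times the fragments of *Dock2*. *Rac3* had 0.784 FPKM from 16 fragments. The 4 GTPase genes together had 560 FPKM and the 10 exchange factor genes 166 FPKM, a ratio of 3.38 that was 1.17 in fragments, 24469 against 20878. These are ratios of mRNA levels, and neither the proteins nor the share of GTP-bound Rac was measured in this library.

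The genes whose products act against exchange were also present. Of 13 genes for Rac GTPase-activating proteins, 10 reached 1 FPKM. The median of the list was 5.01 FPKM and its sum 155 FPKM. *Arhgap9* had 61.3 FPKM, *Racgap1*, which acts with *Ect2* in cytokinesis, 28.1 FPKM, *Arhgap25* 23.3 FPKM and *Abr* 15.9 FPKM. The lowest were *Srgap1* at 0.104 FPKM, *Arhgap22* at 0.0817 FPKM and *Chn1* at 0.0597 FPKM. Of the inhibitors that hold these GTPases in the GDP-bound form, *Arhgdib*, the hematopoietic form, had 588 FPKM and *Arhgdia* 187 FPKM, both above every exchange factor gene. *Arhgdig* was listed at 0.195 FPKM, a value that gave no whole number of fragments.

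The partners of the high exchange factors were read gene by gene. For the DOCK-A proteins, *Elmo2* had 15.2 FPKM, *Elmo1* 7.71 FPKM and *Elmo3* 3.85 FPKM. Of the adaptors that bring DOCK180 to adhesion sites, *Crkl* had 19.9 FPKM, *Crk* 19.4 FPKM and *Bcar1* 0.125 FPKM from 9 fragments. For the PIX proteins, *Git1* had 10.1 FPKM, *Git2* 8.96 FPKM and *Pxn*, which encodes paxillin, 48.6 FPKM. For the Tiam proteins, the polarity genes *Pard3*, at 0.0393 FPKM from 9 fragments, and *Prkcz*, at 0.181 FPKM from 18, were under 1 FPKM, while *Prkci* had 5.55 FPKM and *Cd44* 57.4 FPKM. The partner genes of DOCK-A and PIX were above 1 FPKM with the exception of *Bcar1*, and those of Tiam were so in 2 of 4 cases. At this minimum 46.8% of all protein-coding genes were detected, so the count for Tiam is near that share.

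Of 14 genes for kinases and adaptors that act on Vav proteins, 13 reached 1 FPKM, and the list's median was 28.1 FPKM. Among the highest were the kinase genes *Fgr* at 74.7 FPKM and *Syk* at 64.1 FPKM and the adaptor gene *Grb2* at 93.5 FPKM. *Lat* at 5.52 FPKM and *Zap70* at 4.57 FPKM, which serve the T cell receptor, were among the lowest, and *Src* had 0.710 FPKM. Of 10 genes for the PI3K and G protein subunits that feed P-Rex1, 9 reached 1 FPKM, and the list's median was 18.9 FPKM. *Gnb2* had 168 FPKM, *Pik3cd* 55.9 FPKM, *Gnb1* 55.0 FPKM and *Gng5* 39.1 FPKM, while *Pik3r6* had 12.1 FPKM, *Gngt2* 9.32 FPKM and *Gnb4* 0.649 FPKM.

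Downstream, the WAVE complex carries the Rac signal to actin. Of its 11 genes, 8 reached 1 FPKM, and the list's median was 7.85 FPKM. The subunit genes *Brk1*, at 116 FPKM, *Cyfip2*, at 72.5 FPKM, *Nckap1l*, the hematopoietic HEM1, at 67.3 FPKM, and *Wasf2*, at 50.4 FPKM, were the highest. *Abi2* had 0.616 FPKM, *Wasf1* 0.0222 FPKM from 1 fragment, and *Wasf3* was listed at 0, which allows up to 0.0366 FPKM by 3 fragments.

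**Figure D4:**
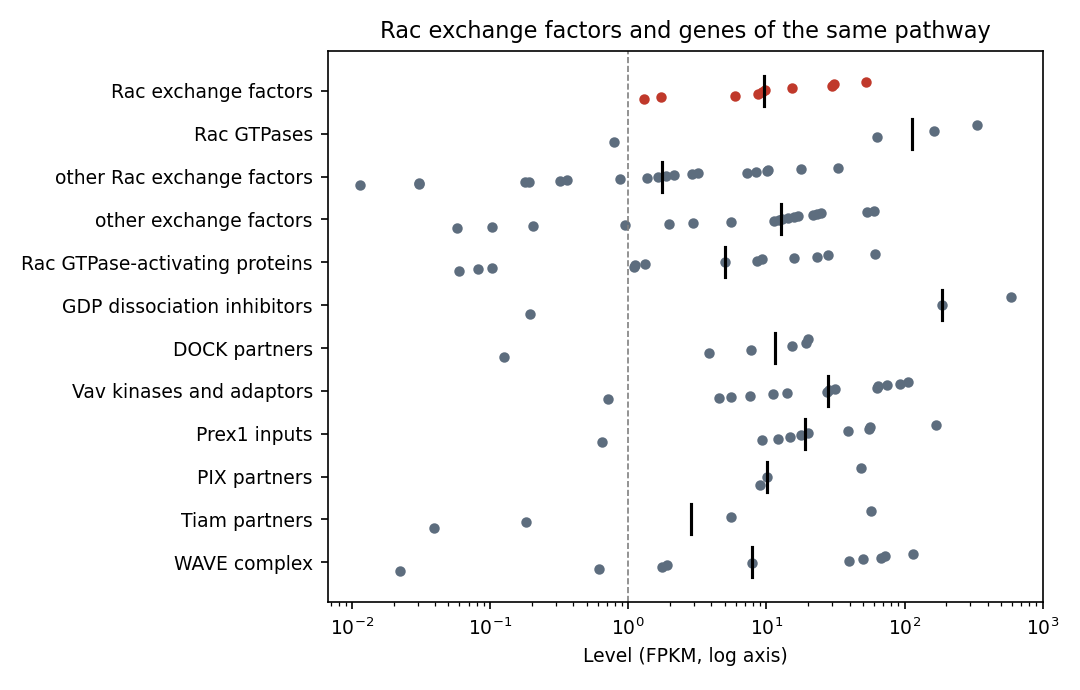
Levels in FPKM on a log axis of the 10 Rac exchange factor genes (red) and of the genes of 11 lists by role (grey), 1 point a gene, with a black line at each list's median and a dashed line at 1 FPKM; *Wasf3*, listed at 0, is not drawn but counts in its median. The medians run from 1.75 FPKM for the other Rac exchange factors to 187 FPKM for the GDP dissociation inhibitors, with 9.56 FPKM for the 10 genes.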

How the data were processed

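Total RNA of the Ctrl cells labelled as c-kit+ BM cells was sequenced on an Illumina HiSeq platform. The authors deposited FPKM, 1 value for each of 54532 genes. The submitters' processing notes name mm10, HISAT2 2.0.5 and featureCounts 1.5.0-p3; the annotation and strandedness are not given in the sources used here. FPKM times the length of all exons (GENCODE M21, GRCm38, the assembly of mm10) gave whole multiples of 1 step, within 0.01, for 96.4% of 21313 genes above 0, the 10 members included. Rounded multiples were read as fragments and used for 95% Wilson intervals and exact intervals of ratios, checked on simulated data. Counting error alone is covered, and PCR copies of 1 molecule are not independent. There were no replicates, so no test was made.

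The members and lists were chosen with earlier results of these data known. The text names all members, whole lists of up to 6 genes, the 4 highest and 3 lowest genes of longer lists, and *Kit*. Other DOCK genes and *Arhgef7* were named as relatives after their values were seen. A few genes that this rule would name are not reported here. A comparison of protein sequences was replaced by coding sequences, aligned globally. The alternatives were other detection minimums, totals, gene lengths and backgrounds. Python 3.11.15, numpy 2.4.6, pandas 2.3.3, scipy 1.17.1, matplotlib 3.10.9 and Biopython 1.88 were used.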

Additional observations from a re-analysis of the deposited data

How the results depend on the processing

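No paired analysis was possible because there is no more than 1 library here. The number of the 10 genes detected, 10 at 1 FPKM, was 4 at 10 FPKM, by construction. Their median of 9.56 FPKM was 10.4 without the 10 most abundant genes in the total and 22.3 in TPM, factors common to all genes. It was 12.4 with the longest coding transcript as length, 20.5 with coding length and 1672.5 fragments without division by length. The ratio of this median to that of all genes above 0, 5.40, was 2.27 against protein-coding genes and 1.23 against genes at 1 FPKM or more, which are higher by construction.

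The ratio of *Prex1* to *Dock2* reversed, from 1.03 to 0.907 with the longest coding transcript and 0.925 without division by length, and that of *Vav1* to *Prex1*, from 1.71 to 0.614 without division, since *Vav1* has the shortest exons of the 10. The latter was 1.35 with the longest coding transcript and 1.20 with coding length. Further ratios reversed too. *Dock1* to *Tiam2*, 1.33, was 0.876 with the longest coding transcript, 0.895 with coding length and 0.973 without division. *Tiam1* to *Dock5*, 1.04, was 0.859 and *Rhog* to *Dock2*, 5.46, was 0.678 without division, and *Dock5* to *Vav3*, 1.08, was 0.995 with coding length and 2.19 without division. Ratios within the Vav and DOCK-A genes and within the Tiam pair kept their direction. Those within the P-Rex and PIX pairs did so in fragments, the only alternative computed for them. *Vav1* to *Vav3*, 6.10, was 3.75 with coding length and 3.74 without division. *Dock2* to *Dock5*, 3.20, was 4.68 with the longest coding transcript and 3.01 without division. *Tiam1* to *Tiam2*, 7.45, was 4.94, 6.34 and 5.88 with the longest coding transcript, with coding length and without division. In the same order, the share of *Vav1* in the summed level, 31.8%, was 26.9%, 22.5% and 14.7%. The share of *Prex1*, 18.6%, was 19.8%, 18.8% and 24.0% in that order, and that of *Dock2*, 18.1%, was 21.9%, 18.3% and 25.9%. The 10 genes held 30.3% of the summed level of the 48 listed exchange factors, 28.4% in fragments and 34.1% without *Arhgef1*, the highest. Depth limits the genes with few fragments, such as *Prex2* with 8. The spread between mice is unknown at every level.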
